A study of Mus musculus with 4 samples.

Results

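The miR-130 and miR-301 family of the mouse cortex was examined in small RNA sequencing of 4 libraries, through the 3p arms that carry the family's names. The deposited table of 942 mature miRNAs held 4 of them, miR-130a-3p, miR-130b-3p, miR-301a-3p and miR-301b-3p. They were found by name, and no measured value entered the rule, although earlier results of these data were known when it was set. Each library came from the brain cortex of 1 mouse of the strain B6C3 at 9 months of age. WT1 and WT2 were wild type, and APP3 and APP4 (AD mice) carried the transgenes APPswe and PS1deltaE9, that is, amyloid precursor protein with the Swedish mutation, in part of human and in part of mouse sequence, together with human presenilin 1 that bears the deltaE9 mutation. Both transgenes are driven in neurons of the central nervous system. According to the methods of the study WT1 and APP4 were siblings (group 1), as were WT2 and APP3 (group 2). The question put to the data was whether the family differed between the mouse model of Alzheimer's disease and its wild-type siblings.

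A miRNA directs the silencing complex to messenger RNAs that pair with its seed, the bases 2 to 8 from the 5′ end, so miRNAs with a common seed are expected to bind overlapping sets of targets. The miR-130 and miR-301 family is known for repressing Pparg, the master regulator of fat cell differentiation, and miR-130a is known for promoting vessel growth in endothelial cells through the homeobox genes Meox2 and Hoxa5. Each miRNA hairpin gives 2 mature arms, named 5p and 3p, of which usually 1 is kept by the Argonaute protein.

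RefSeq sequences on GRCm38.p6 were matched for 3 of the 4 members (miR-130a-3p, miR-130b-3p and miR-301a-3p), for the 5p arms of all 4 hairpins, and for the 3 members of the miR-148 and miR-152 family. The members are shown because the bases that tell them apart decide how well their reads can be separated, miR-130b-5p because it was read almost as often as its partner arm, and miR-148b-3p because its seed is the members' seed shifted by 1 base. Capitals mark bases 2 to 8.
miR-130a-3p: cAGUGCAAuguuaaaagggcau
miR-130b-3p: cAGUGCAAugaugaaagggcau
miR-301a-3p: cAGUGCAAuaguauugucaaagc
miR-130b-5p: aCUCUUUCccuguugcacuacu
miR-148b-3p: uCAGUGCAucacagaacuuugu

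The 3 members above had the seed AGUGCAA. Counting from 1 at the 5′ end, miR-130a-3p and miR-130b-3p, each of 22 bases, differed at 2 positions, U11A and A13G, and shared the other 20. miR-130a-3p and miR-301a-3p shared the first 9 bases and differed at 10 of the 22 positions compared. The methods of the study name up to 2 mismatches for the counting of reads and also none for miRBase. Where mismatches were allowed, the reads of miR-130a-3p and miR-130b-3p could have been divided between them with error. The same may hold for any other pair that is as close. The sequence of miR-301b-3p was not matched, so how close it is to miR-301a-3p was not compared. miR-301a-3p had 14.2 to 29.0 times the reads of miR-301b-3p, and whether any of them were counted as miR-301b-3p was not tested. In RefSeq, 7 mature miRNAs carried the seed AGUGCAA, and of the other four, miR-130c, miR-721, miR-6341 and miR-6389, none is a row of the table. The 5p arms had other seeds, CUCUUUU in miR-130a-5p, CUCUUUC in miR-130b-5p, and CUCUGAC in both miR-301a-5p and miR-301b-5p. The seed of all 3 members of the miR-148 and miR-152 family, CAGUGCA, equals the first 7 bases of miR-130a-3p.

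The 4 hairpins came from 3 places of the genome (GENCODE vM21 on GRCm38). The hairpin of miR-130a lies on the minus strand of chromosome 2 from 84741115 to 84741178, outside other annotated genes, with the predicted protein-coding gene Gm19426 at a distance of 990 bases. The hairpin of miR-301a occupies bases 87113004 to 87113089 of chromosome 11, on the plus strand, within an intron of Ska2. This gene has the same strand, and its protein joins spindle microtubules to kinetochores. The hairpins of miR-130b (17124061 to 17124142) and miR-301b (17124400 to 17124496) lie side by side on the minus strand of chromosome 16, with 257 bases between them, in an intron of the protein-coding gene 2610318N02Rik.

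The libraries held between 19048747 and 26085776 miRNA reads, to which the counts were scaled (reads per 1000000 miRNA reads, RPM), and 3 reads correspond to between 0.115 and 0.157 RPM. APP4 stood apart in the miR-200 family, a family typical of epithelium, whose 5 3p arms summed to 1108 RPM against 45.4 to 64.5 RPM in the other 3 libraries. Correction of the library sizes by TMM, which balances the bulk of the miRNAs, lowered all log2 fold changes of APP4 against WT1 by 0.25, those of APP3 against WT2 by 0.02, those of WT2 against WT1 by 0.11 and those of APP4 against APP3 by 0.13. The 4 neuronal markers (miR-124-3p, miR-9-5p, miR-128-3p and miR-132-3p) were present in every library, as in cortex, and summed to 74102 to 82219 RPM. Of the markers of other cells, all of them with reads, the 3 of myeloid cells summed to 61.1 and 81.6 RPM in WT1 and WT2 and to at least 97.4 RPM in both AD mice, and the 2 of smooth muscle to 24066 and 24480 RPM in WT1 and WT2 and to 20873 and 16778 RPM in APP3 and APP4. The sums overlapped between the genotypes for the endothelial markers (7322 to 9135 RPM), the erythroid (3223 to 4642 RPM), the oligodendrocyte (1793 to 2140 RPM) and the choroid plexus markers (2926 to 4387 RPM). In bulk tissue, a change in the number of cells of a type and a change of RNA per cell cannot be told apart.

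miR-130a-3p and miR-301a-3p carried the family in the cortex. The WT mice (WT1, then WT2) had 282 and 238 RPM of miR-130a-3p, and the AD mice (APP3, then APP4) had 278 and 272 RPM, at rank 158 or higher among the 942 miRNAs. miR-301a-3p was at 260 and 192 RPM in the same WT mice and at 258 and 247 RPM in APP3 and APP4. For both, WT2 was the lowest library, and the other 3 lay close together at this scaling. With TMM library sizes WT2 stayed the lowest, and APP4 lay nearer to it. The values of WT2 and APP4 were then 221 and 228 for miR-130a-3p, and 178 and 207 for miR-301a-3p. miR-130b-3p was at 26.8 (WT1) and 27.5 RPM (WT2) in the WT mice and at 38.1 (APP3) and 33.6 RPM (APP4) in the AD mice, so that both AD mice lay above both WT mice. miR-301b-3p was at 13.5 (WT1) and 10.4 RPM (WT2) in the WT mice and at 18.2 (APP3) and 8.50 RPM (APP4) in the AD mice, and here the AD mice were the highest and the lowest of the 4. Since 1 read covers a whole mature miRNA, no correction for length was made, and the efficiency with which each sequence is ligated was not measured.

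**Figure D1:**
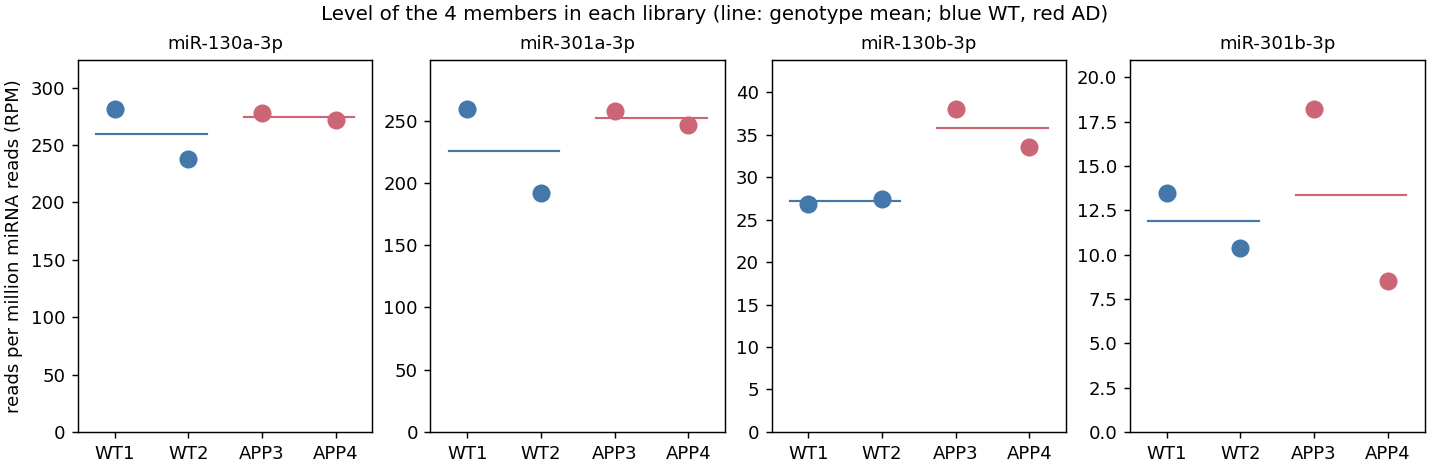
RPM (vertical axis, linear from 0, a scale of its own in each panel) of the 4 members in the 4 libraries (horizontal axis), with WT in blue, AD in red and a line at the mean of each genotype (n = 2). miR-130b-3p was higher in both AD mice (38.1 and 33.6 RPM) than in both WT mice (26.8 and 27.5 RPM), and the genotypes overlapped for the other 3 members.

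The order of the levels was miR-130a-3p, miR-301a-3p, miR-130b-3p, miR-301b-3p in each of the 4 libraries. Over all 4 mice the means were 267 ± 20.1 RPM (SD, n = 4), 239 ± 32.1, 31.5 ± 5.35 and 12.6 ± 4.26 RPM. The neighbours miR-130a-3p and miR-301a-3p did not differ beyond their spread between mice, although within a library miR-130a-3p had between 1.07 and 1.24 times the reads of miR-301a-3p. The steps to miR-130b-3p and to miR-301b-3p were larger than the spread. The members also differed in how much they varied. The log2 ratio of the highest to the lowest library was 0.25 for miR-130a-3p, 0.44 for miR-301a-3p, 0.51 for miR-130b-3p and 1.10 for miR-301b-3p. The median of this ratio was 0.49, with quartiles of 0.34 and 0.66, over 424 miRNAs averaging 5 RPM or more and read in each library.

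The shares of the members within the family do not depend on how the libraries are scaled. Together the 4 members were read 15179 times in WT1, 10318 times in WT2, 12593 times in APP3 and 10683 times in APP4, between 0.0467% and 0.0592% of the miRNA reads. miR-130a-3p made up 48.7% ± 1.64 of them (SD, n = 4), miR-301a-3p 43.3% ± 1.59, miR-130b-3p 5.73% ± 0.785 and miR-301b-3p 2.28% ± 0.640. For miR-130b-3p the share in the WT mice was 4.61% (WT1, 95% Wilson interval 4.28 to 4.95) and 5.88% (WT2, 5.45 to 6.35), and in the AD mice 6.43% (APP3, 6.02 to 6.87) and 5.99% (APP4, 5.56 to 6.46). By this measure WT1 stood below the other 3 mice, while the interval of WT2 overlapped those of both AD mice. For miR-301b-3p it was 2.31% (WT1, 2.09 to 2.56) and 2.22% (WT2, 1.95 to 2.52) in the WT mice, and 3.08% (APP3, 2.79 to 3.40) and 1.52% (APP4, 1.30 to 1.77) in the AD mice. The WT mice had nearly the same share of miR-301b-3p, and the AD mice lay on either side of them, with intervals that did not overlap. The intervals cover counting error only and leave out the spread between mice. They also take each read as independent, which copies made in PCR are not.

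**Figure D2:**
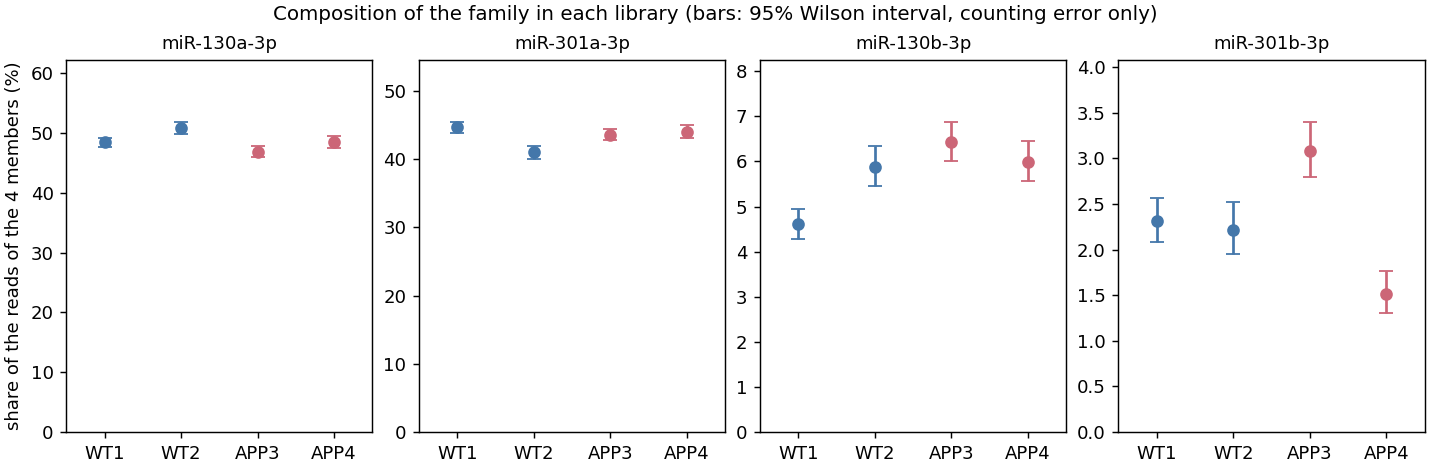
Share of each member (percent, vertical axis from 0, a scale of its own in each panel) in the reads of the 4 members, by library (horizontal axis), with 95% Wilson intervals and WT in blue, AD in red. The share of miR-301b-3p was 3.08% in APP3 and 1.52% in APP4, above and below the 2.31% and 2.22% of the WT mice.

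Within the sibling pairs, miR-301b-3p was the member that passed the limits used here on the read counts, an FDR under 0.05 in Fisher's exact test and at least a 1.5-fold change, and it moved in opposite directions in the groups. In group 1 it fell from 351 reads in WT1 to 162 in APP4, a log2 fold change of -0.66 (SE of counting 0.14, FDR 3.15e-06 in the two-sided Fisher's exact test). In group 2 it rose from 229 reads in WT2 to 388 in APP3, with a log2 fold change of 0.81 (SE 0.12, FDR 3.34e-11, same exact test). Thus 1 of the 4 members was called in group 1, where 11.6% of the 899 miRNAs tested were called, and 1 of the 4 in group 2, where 6.81% of 896 were. The same rule applied to mice of one genotype called miR-301b-3p between the AD mice, with a log2 fold change of -1.10 (SE 0.13, FDR 1.07e-16, Fisher's exact test) for APP4 against APP3, where 8.05% of the 907 miRNAs tested were called. Between the WT mice it called 0 of the 4 members, where 10.1% of 879 miRNAs were called, and miR-301b-3p differed by -0.37 on the log2 scale (SE 0.12, FDR 0.00665, Fisher's exact test) for WT2 against WT1. In size, the difference between the AD mice thus exceeded that within either sibling pair, which was not tested. These calls depend on the number of reads entered: with values scaled to 1000000 reads a library and rounded, miR-301b-3p was not called in group 1 (FDR 1), in group 2 (FDR 0.713) or between the AD mice (FDR 0.427) in Fisher's exact test, and the calls over all miRNAs fell from 104 to 32 in group 1 and from 61 to 23 in group 2. These tests compare 2 libraries and not the genotypes, and a difference within a pair has no replicate check. The miRNAs that the study itself lists as changed by more than 1.5-fold in its sibling pairs do not include any of the members. Those lists are far shorter than the 104 and 61 calls made here on the read counts. In length they are nearer to the 32 and 23 calls after rounding, where miR-301b-3p was not called either. The study's methods do not say whether raw or scaled counts were tested, so its lists and the calls made here cannot be compared like with like. APP4, the library that stood apart in the miR-200 family, was also the lowest for miR-301b-3p, and the part of this in the result was not tested.

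Of the 4 members, miR-130b-3p alone was higher in both AD mice than in their siblings. Its log2 fold change was 0.33 (SE of counting 0.08, FDR 1.30e-04, Fisher's exact test) in group 1, with 699 reads in WT1 and 640 in APP4, and 0.47 (SE 0.08, FDR 5.85e-09, same exact test) in group 2, with 607 reads in WT2 and 810 in APP3. Both stayed under 1.5-fold. With TMM library sizes the difference in group 1 was 0.073 (FDR 0.567, Fisher's exact test) and that in group 2 was 0.45. Between the WT mice the log2 difference was 0.037 (SE 0.08), and between the AD mice it was -0.18 (SE 0.08). The WT mice averaged 27.1 ± 0.492 RPM (SD, n = 2) and the AD mice 35.8 ± 3.17 RPM (SD, n = 2). Its 4 libraries also did not overlap between the genotypes when scaled to the clean reads, or with TMM library sizes, where APP4 with 28.2 lay just above WT1 with 26.8. For 1 of the 4 members the genotypes did not overlap, and so it was for 36% of the 623 miRNAs tested over the 4 mice. The summed myeloid markers were likewise higher and the summed smooth muscle markers lower in both AD mice. Of the 3 myeloid markers, miR-142-5p and miR-142-3p separated the genotypes and miR-223-3p did not (4.52 and 5.89 RPM in WT1 and WT2, 6.07 and 5.72 RPM in APP3 and APP4), and both smooth muscle markers did. Of the other lists, miR-126-3p of endothelium, miR-211-5p of choroid plexus and miR-132-3p of neurons were higher in RPM in both AD mice. miR-204-5p of choroid plexus and miR-486-5p of erythroid cells were lower, but WT1 and APP3 nearly met. WT1 and APP3 had 3484 and 3472 RPM of miR-204-5p, and 3900 and 3881 RPM of miR-486-5p. The gap was also small for miR-145a-5p of smooth muscle, between WT2 and APP4. The markers were not compared at another scaling. The part of the markers in the result of miR-130b-3p was not tested.

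Scaled to miRNA reads, the abundant members differed little between siblings in group 1 and were higher in the AD mouse in group 2. miR-130a-3p had a log2 fold change of -0.052 (SE 0.03, FDR 0.105, Fisher's exact test) in group 1 and 0.22 (SE 0.03, FDR 1.73e-15, same exact test) in group 2. miR-301a-3p had -0.073 (SE 0.03, FDR 0.0197, Fisher's exact test) and 0.43 (SE 0.03, FDR 2.85e-47, same exact test). With TMM library sizes the values of group 1 were -0.31 for miR-130a-3p and -0.33 for miR-301a-3p, still under the limit of 1.5-fold. Those of group 2 were then 0.21 and 0.41. Differences of a like size separated the WT mice, at -0.25 on the log2 scale for miR-130a-3p and -0.44 for miR-301a-3p in WT2 against WT1. These were -0.35 and -0.54 with TMM library sizes. Between the AD mice the log2 differences were -0.030 and -0.065, and with TMM library sizes -0.16 and -0.20. WT2, the mouse with the lowest level of both, takes part in the comparison of group 2 and in that of the WT mice.

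**Figure D3:**
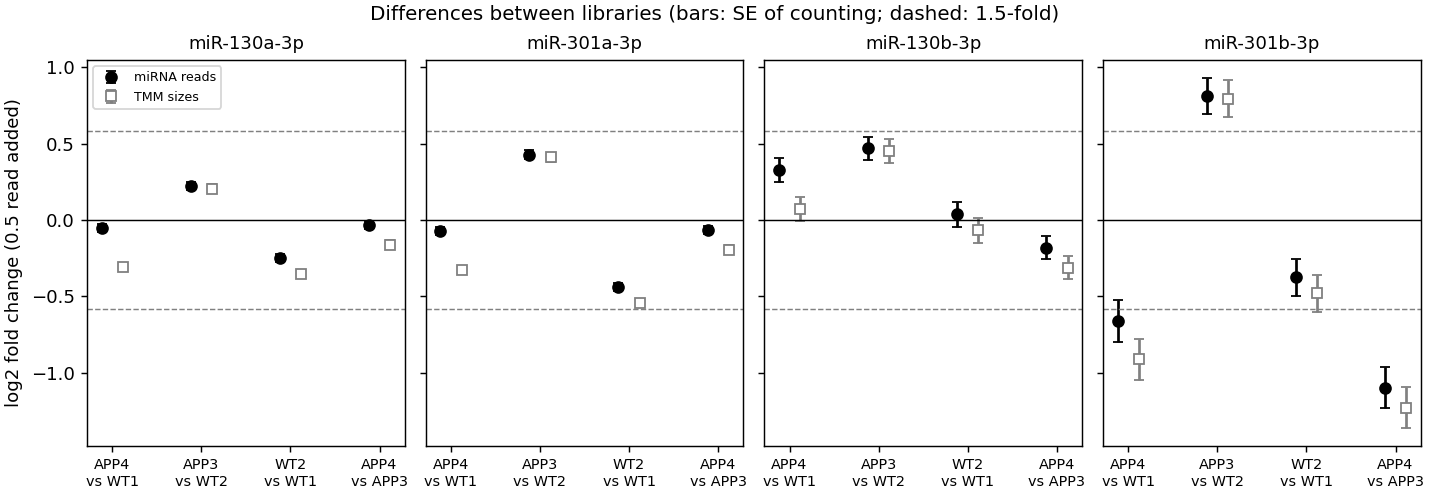
Log2 fold change (vertical axis, 0.5 read added) of the 4 members in both sibling pairs and between the mice of each genotype (horizontal axis), with filled circles for scaling to miRNA reads, open squares for TMM library sizes, bars for the SE of counting and dashed lines at 1.5-fold. miR-301b-3p lay beyond the dashed lines in both groups with opposite signs, at -0.66 and 0.81, and was at -1.10 between the AD mice.

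As a group, the 4 members had a median log2 fold change of -0.063 in group 1, against 0.19 for the 422 miRNAs that averaged 5 RPM or more, and of 0.45 in group 2, against 0.045 for 418 such miRNAs. Between the WT mice (WT2 against WT1) the members' median was -0.31 against 0.092 for 416 miRNAs. Between the AD mice (APP4 against APP3) it was -0.12 against 0.087 for 424 miRNAs. The members are not independent of each other, since a pair of them lies in one cluster and their reads may have been exchanged. Summed over the members, the level was 582 and 467 RPM in the WT mice (WT1, WT2) and 592 and 561 RPM in the AD mice (APP3, APP4). At this scaling 1 WT mouse lay among the AD mice and the other below them. With TMM library sizes WT1 with 582 lay above both AD mice (544 in APP3, 470 in APP4), and WT2 with 434 lay below them.

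With the mice as replicates, the quasi-likelihood test of edgeR (Benjamini-Hochberg adjustment) called 0 of the 4 members and 0% of the 623 miRNAs tested, of which 36 had an unadjusted p under 0.05. DESeq2 also called 0 miRNAs, with 28 at an unadjusted p under 0.05. The log2 fold change of the AD mice against the WT mice was 0.27 (SE 0.22, adjusted p = 0.958, edgeR) for miR-130b-3p, -0.058 (SE 0.21, adjusted p = 0.995, edgeR) for miR-130a-3p, 0.020 (SE 0.24, adjusted p = 0.995, edgeR) for miR-301a-3p and 0.048 (SE 0.39, adjusted p = 0.995, edgeR) for miR-301b-3p. The members' median was 0.034, beside -0.022 for all miRNAs tested. The sign for miR-130a-3p depended on the scaling, since without TMM it was 0.081. The estimate for miR-301b-3p depended on single AD mice, being -0.70 (SE 0.33) without APP3 and 0.52 (SE 0.30) without APP4, while that of miR-130b-3p lay between 0.11, without APP3, and 0.41, without APP4.

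The hairpins differed in how their reads were divided between the arms. The hairpins of miR-130a, miR-301a and miR-301b gave almost only 3p reads. Of miR-130a-5p there were 7 reads in WT1 and 6 in WT2, and 2 in each AD mouse, between 0.0339% and 0.114% of the reads of both arms. The difference of miR-130a-5p did not pass Fisher's exact test in either group (FDR 0.505 and 0.504), and the counts are near the smallest that this depth can show. miR-301a-5p had 23, 36, 16 and 32 reads in WT1, WT2, APP3 and APP4, between 0.290% and 0.843% of both arms. miR-301b-5p had 3 reads in WT2 and 0 in the other 3 libraries, which allows a level of up to 0.157 RPM there (3 reads).

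The hairpin of miR-130b instead gave nearly equal numbers of both arms. In the WT mice miR-130b-5p was read 556 (WT1) and 579 times (WT2), which was 44.3% (95% Wilson interval 41.6 to 47.1) and 48.8% (46.0 to 51.7) of the reads of both arms. In the AD mice it was read 695 (APP3) and 552 times (APP4), which was 46.2% (43.7 to 48.7) and 46.3% (43.5 to 49.1), and all 4 intervals overlapped. Among the 111 hairpins with at least 100 reads of each arm in each library, 2 had a more even division. The log2 ratio of the arms of miR-130b varied by 0.26 over the 4 libraries, where the median of these hairpins was 0.60 and 9 of them varied less.

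Like its partner, miR-130b-5p was higher in both AD mice when scaled to miRNA reads, at 21.3 and 26.2 RPM in the WT mice (WT1, WT2) and 32.7 and 29.0 RPM in the AD mice (APP3, APP4). At this scaling the genotypes did not overlap for 36% of the 623 miRNAs tested, and the arms share a hairpin. The log2 fold change of miR-130b-5p was 0.44 (SE of counting 0.09, FDR 1.42e-06, Fisher's exact test) in group 1 and 0.32 (SE 0.08, FDR 3.89e-04, same exact test) in group 2, both under 1.5-fold. With TMM library sizes WT2 with 24.4 and APP4 with 24.3 met, and over the 4 mice edgeR gave 0.25 (SE 0.22, adjusted p = 0.958). miR-301a-5p passed the same limits in both groups in opposite directions, with a log2 fold change of 0.92 (SE 0.39, FDR 0.0491, Fisher's exact test) in group 1 and -1.09 (SE 0.43, FDR 0.0257, same exact test) in group 2, on 16 to 36 reads a library (0.752 to 1.68 RPM). It also passed between the AD mice, at 1.14 (SE 0.44, FDR 0.0264, Fisher's exact test) for APP4 against APP3. Between the WT mice it did not pass, though the difference was of a like size, at 0.88 (SE 0.38, FDR 0.0615, Fisher's exact test) for WT2 against WT1. WT1 and APP3 were the low libraries for miR-301a-5p, and they were the highest for miR-301b-3p.

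**Figure D4:**
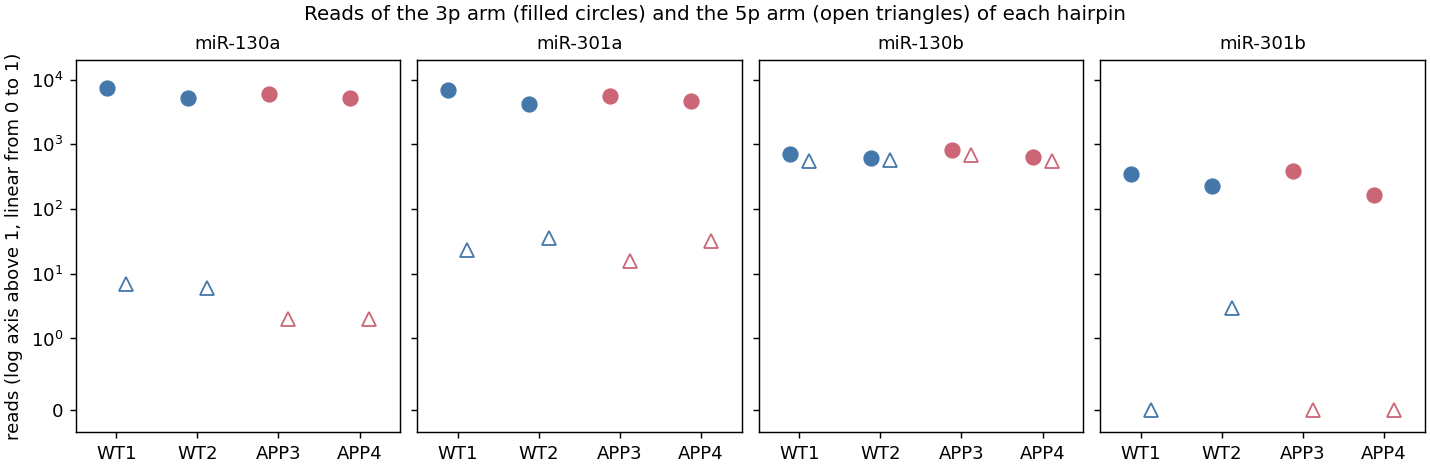
Reads (vertical axis, logarithmic above 1 and linear from 0 to 1) of the 3p arm (filled circles) and the 5p arm (open triangles) of the 4 hairpins in each library (horizontal axis), with WT in blue and AD in red. The arms of miR-130b lay side by side, with 607 to 810 reads of 3p and 552 to 695 of 5p, while the other hairpins had at most 36 reads of 5p.

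miR-130b-3p and miR-301b-3p come from neighbouring hairpins, and their ratio does not depend on the scaling. For each read of miR-301b-3p there were 1.99 (WT1) and 2.65 (WT2) reads of miR-130b-3p in the WT mice, and 2.09 (APP3) and 3.95 (APP4) in the AD mice. miR-301b-3p made up 33.4% (95% Wilson interval 30.6 to 36.3) and 27.4% (24.5 to 30.5) of the reads of both in WT1 and WT2. In APP3 and APP4 it made up 32.4% (29.8 to 35.1) and 20.2% (17.6 to 23.1). APP4 thus had less miR-301b-3p relative to its neighbour than the other 3 mice, including the AD mouse APP3, and the genotypes overlapped. The ratio of miR-301a-3p to miR-301b-3p was also highest in APP4, at 19.3 (WT1) and 18.5 (WT2) in the WT mice and 14.2 (APP3) and 29.0 (APP4) in the AD mice. The ratio of miR-130a-3p to miR-130b-3p was 10.5 (WT1) and 8.64 (WT2) in the WT mice and 7.29 (APP3) and 8.09 (APP4) in the AD mice, so that both WT mice had the higher ratios. The corresponding share of miR-130b-3p in the pair had 95% Wilson intervals of 9.61% to 11.2% in WT2 and 10.2% to 11.8% in APP4, which overlap.

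The family with the shifted seed, known for repressing DNA methyltransferases, was far more abundant. miR-148a-3p, miR-148b-3p and miR-152-3p together reached 4999.5 (WT1) and 4143 RPM (WT2) in the WT mice and 4937 (APP3) and 3661 RPM (APP4) in the AD mice, which is 6.53 to 8.87 times the summed level of the miR-130 and miR-301 family. Its lowest ratio to that family was found in APP4. None of its 3 members passed the limits in either sibling pair. miR-152-3p, with 31.8 RPM in APP3 and 49.2 in APP4, passed it between the AD mice, with a log2 fold change of 0.63 (SE 0.07, FDR 1.74e-17, Fisher's exact test), opposite in direction to miR-301b-3p.

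Of 250 other miRNAs that averaged 50 RPM or more, the levels of miR-344b-3p, miR-140-3p and miR-488-3p over the 4 libraries were most like the summed level of the family. Their root mean square difference from it, in log2 RPM centred over the 4 libraries, was 0.029, 0.038 and 0.047, beside a median of 0.21. miR-344b-3p was at 118 and 98.3 RPM in the WT mice (WT1, WT2) and at 123 and 112 RPM in the AD mice (APP3, APP4), lowest in WT2 like the family. With 4 libraries this likeness is a description only.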

How the data were processed

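The authors sequenced small RNA on the Illumina platform, filtered reads by adapter, quality and length, and matched them to miRBase 19 (the study's methods name both up to 2 mismatches and none). The authors deposited read counts of each mature miRNA, variants included and not normalized, for 4 libraries. A second deposited column, headed TPM, gives RPM with clean reads as the total and was used here only as another scaling. The study's methods name GRCm38, the processing notes mm9.

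The counts were scaled to the miRNA reads of each library. Fisher's exact test (two-sided, scipy 1.17.1) compared 2 libraries over all miRNAs with a read, with the Benjamini-Hochberg FDR and the limits of 0.05 and 1.5-fold named in the study's methods, which do not say whether raw or scaled counts were tested, and 0.5 read was added before logarithms were taken. Genotypes were tested with edgeR 4.0.16 (filterByExpr, TMM, quasi-likelihood test) in R 4.3.3, with DESeq2 1.42.0 and a sibling block as alternatives. The Fisher and edgeR steps were run on simulated data with known changes, as a check of the steps and not of these results. The simulated libraries of the Fisher step held counting noise only. The deviations of siblings correlated with r = 0.24 over 252 miRNAs with at least 50 RPM, and the pairing is that of the study's methods. All 4 mice are separate animals, and no 2 libraries differed by sampling noise alone.

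The members, lists and tests were chosen with earlier results of these data known. The miRNAs named were the members, their 5p arms, those with the same or the shifted seed, the marker lists (neuron, endothelium, smooth muscle, erythroid, myeloid, oligodendrocyte, choroid plexus) and the 3 most alike in level. Sequences were taken from RefSeq and hairpin positions from GENCODE vM21. The qRT-PCR of the study was not analysed here.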

Additional observations from a re-analysis of the deposited data

Results flagged for a closer look

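For 3 of the 4 members the AD mouse was below its WT sibling in group 1 (APP4 and WT1) and above it in group 2 (APP3 and WT2). The log2 fold changes of group 1 and group 2 were -0.66 and 0.81 for miR-301b-3p, -0.073 and 0.43 for miR-301a-3p, and -0.052 and 0.22 for miR-130a-3p. TMM library sizes kept these 6 signs. Whether the groups differ was not tested, since a pair holds 1 mouse of each genotype. The value of group 1 for miR-130a-3p had an FDR of 0.105 in Fisher's exact test, and of 5.16e-31 at -0.31 with TMM library sizes.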

How the results depend on the processing

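The call of miR-301b-3p in both sibling pairs and between the AD mice was kept with TMM library sizes, clean reads, a minimum of 10 RPM, the Bonferroni correction and 5 added reads. A limit of 2-fold left 0 members called in group 1 and 0 in group 2, and values scaled to 1000000 and rounded, which hold fewer reads, left 0 in these and 0 between the AD mice. For miR-130b-3p between the WT mice the log2 difference was -0.068 with TMM. Over all miRNAs, the calls of group 1, group 2, the WT and the AD mice numbered 104, 61, 89 and 73, and were 32, 23, 21 and 23 after rounding, 50, 30, 36 and 39 with the minimum of 10 RPM, 65, 34, 51 and 47 with Bonferroni and 50, 23, 38 and 38 at 2-fold. Each pair holds 2 libraries, so none could be left out there.

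In edgeR, 0 members were called under any of the 9 alternatives, and the lowest adjusted p was 0.574, so the block changed no call of a member. With the sibling pair as replicate block the log2 fold change of miR-301b-3p was -0.052, and without TMM that of miR-130a-3p was 0.081. With each mouse left out in turn, where a lone mouse is assumed to vary like the others, it lay between -0.19 and 0.12 for miR-130a-3p, between -0.19 and 0.31 for miR-301a-3p, between -0.70 and 0.52 for miR-301b-3p and between 0.11 and 0.41 for miR-130b-3p. Over all miRNAs the 0 calls became 2 with the block, 3 without WT1, 21 without APP3 and 5 without APP4.

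Without the miR-301 arms, miR-130b-3p made up 10.5% and miR-130a-3p 89.5% of the reads of both, by construction. With 5 reads added, the mean log2 ratio of 3p to 5p went from 10.45 to 9.35 for miR-130a and from 8.36 to 5.60 for miR-301b, whose 5p arms have few reads. Of the 5p arms, miR-130a-5p and miR-301b-5p had at most 7 reads a library. Neither passed Fisher's exact test in a comparison where it had reads. How large a difference of these arms the depths could show was not tested.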
